A study of Mus musculus with 6 samples.

Results

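Transcripts of the aminoacyl-tRNA synthetases were followed in mouse embryonic stem cells after knockdown of Npm1, the gene for the nucleolar protein nucleophosmin. The 36 genes were taken by symbol from the 52535 rows of the authors' deposited comparison, and all 36 had a mean normalized count of at least 10, the minimum for testing. They comprise 18 genes for cytosolic enzymes, Gars and Kars, whose enzymes work in both the cytosol and mitochondria, and 16 genes for mitochondrial enzymes. No measured value enters that match by symbol, but the family itself was selected on the log2 fold changes and p-values of this same contrast, which were known when it was chosen. Every count over these genes is therefore a description, and no test of the group as a whole is given.

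Both groups were cells of the E14 line in N2B27 medium with LIF/2i, transfected by lipofection and collected 3 days later. The control group, of genotype WT, received a control siRNA, and the other, of genotype NPM1 knockdown, an siRNA targeting NPM1. Each group had 3 samples, and polyadenylated RNA was sequenced. The knockdown was transient and partial, with Npm1 at 45.3% of control (log2 fold change -1.14, Benjamini-Hochberg adjusted p = 5.35e-49) in the authors' deposited table. That value also fixed the direction of every ratio, read as Npm1 siRNA over control siRNA, because the table does not name it. The table gives a mean over the 6 libraries, a log2 fold change and a p per gene, so no value per sample can be shown. Group levels below are derived from that mean and fold change and are approximate, and intervals come from the standard error implied by the fold change and p. Nothing in the labels says that the samples came from separate cultures, so the spread behind each p may be technical.

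All 7 stem cell markers examined were tested, with means from 3740 for Sox2 to 23793 for Tfcp2l1, and none was called. Of 6 fibroblast markers, which feeder cells would bring, Col1a1 had the highest mean, at 20.6, and Postn was listed at 0. In bulk RNA, fewer cells of a type and less RNA per cell cannot be told apart.

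Aminoacyl-tRNA synthetases join each amino acid to its matching tRNA and so supply the ribosome with charged tRNA. The cytosolic enzymes serve translation of nuclear genes, and a separate, nuclear-encoded set serves the ribosomes inside mitochondria. The enzymes fall into class I and class II by the fold of their catalytic domain. Several cytosolic members are held in a multisynthetase complex with scaffold proteins. In mammalian cells, shortage of amino acids leaves tRNA uncharged, which activates the kinase Gcn2 and raises translation of the transcription factor Atf4, and many cytosolic synthetase genes are among those that Atf4 induces.

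Lower transcript levels were found for 9 of the 36 genes after Npm1 siRNA, all of them cytosolic or serving both compartments. They were Sars, Lars, Aars, Tars, Nars, Gars, Yars, Kars and Farsb, with levels that ran from 80.9% (Sars) to 88.3% (Kars) of those in control by the authors' deposited table. No member was called higher. Over all 14284 genes tested, 2.07% were called lower and 2.23% higher. Calls are at a Benjamini-Hochberg adjusted p under 0.05 over all tested genes, here a p of at most 0.00214 in the authors' deposited table. Among the 20 genes with a cytosolic role, 18 had a negative log2 fold change, with a median of -0.17 and a range from -0.31 to 0.12. Among the 16 mitochondrial genes, 6 were negative, with a median of 0.04 and a range from -0.28 to 0.24. Of all tested genes, 49.6% were negative, with a median of 0.00192. Tested against a fold of 1.2 in place of no change, 0 of the 36 were called by the same adjustment, and 0 had an unadjusted p under 0.05, where 0.077% of all genes were called lower.

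**Figure D1:**
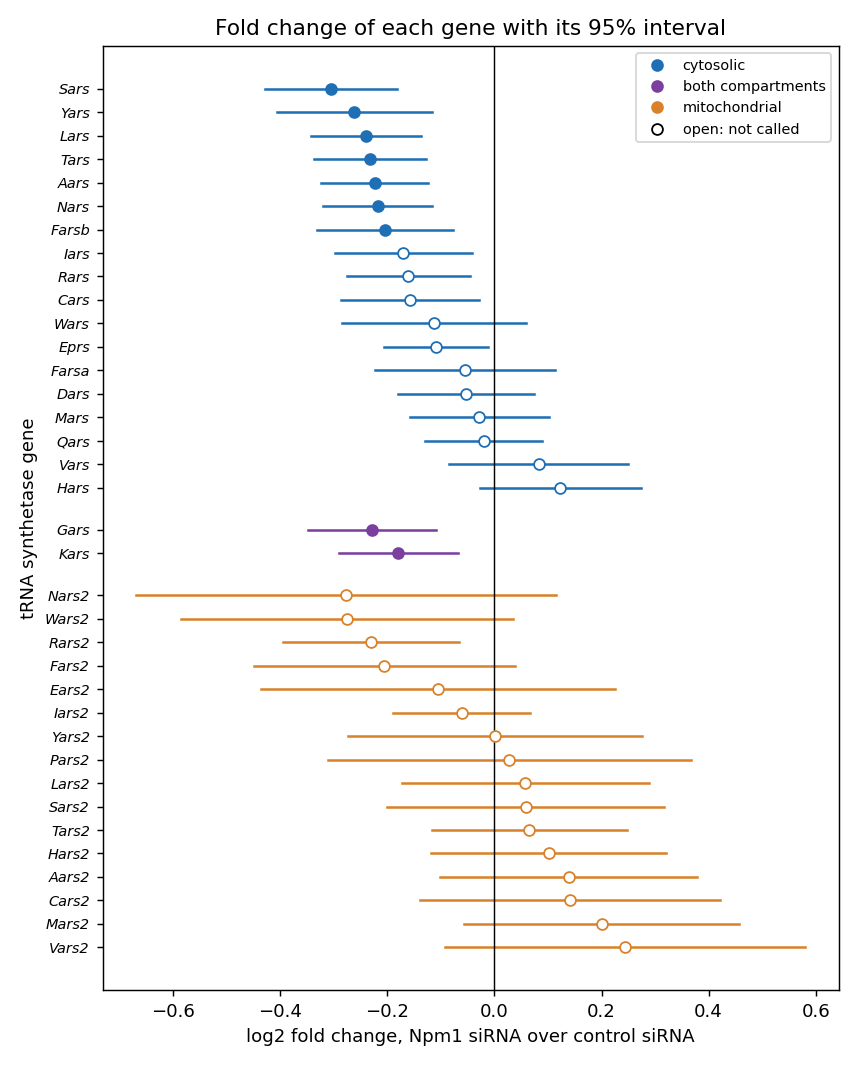
Log2 fold change of each of the 36 genes (horizontal axis, Npm1 siRNA over control siRNA) with its 95% interval (bars), by compartment of the enzyme. Filled points are called, and all 9 lie among the cytosolic genes or those that serve both compartments, between -0.31 and -0.18.

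Sars, which encodes seryl-tRNA synthetase, had the lowest value of the family. Its approximate level was 10177 normalized counts after Npm1 siRNA and 12579.5 in control, both derived from the authors' deposited table. This is 80.9% of control (a log2 fold change of -0.31, 95% interval -0.43 to -0.18), with a Benjamini-Hochberg adjusted p of 0.000185. Sars lies on the minus strand of chromosome 3 from 108424865 to 108445209 (GRCm38) and is annotated as protein coding. It was the gene of rank 89 by p among all tested genes.

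Aars, for alanyl-tRNA synthetase, was the most abundant member by mean count. Its level was 27532 normalized counts after Npm1 siRNA against 32151 in control, derived from the authors' deposited table. The log2 fold change was -0.22 (95% interval -0.32 to -0.12, Benjamini-Hochberg adjusted p = 0.000952). Aars lies on the plus strand of chromosome 8 from 111033144 to 111057664. Its annotated exons share 1326 bases on the same strand with Exosc6, an RNA exosome gene listed at 0 in the authors' deposited table, so reads of that stretch cannot be assigned to either gene with certainty.

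The asparaginyl and threonyl enzymes gave values close to that of Aars. Nars (chromosome 18, 64499647 to 64516652, minus strand) stood at 14670 normalized counts after Npm1 siRNA and 17068 in control, or 85.9% of control, by the authors' deposited table (log2 -0.22, Benjamini-Hochberg adjusted p = 0.00201). Tars (chromosome 15, 11382301 to 11399665, minus strand) stood at 11832 and 13899.97 normalized counts, or 85.1%, by the authors' deposited table (log2 -0.23, Benjamini-Hochberg adjusted p = 0.00128). Both intervals, -0.32 to -0.12 for Nars and -0.34 to -0.13 for Tars, lay wholly below 0.

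Leucyl- and tyrosyl-tRNA synthetase were the class I enzymes whose transcripts fell. For Lars (chromosome 18, 42202298 to 42262194, minus strand) the levels were 8235 normalized counts after Npm1 siRNA and 9723 in control, derived from the authors' deposited table (log2 -0.24, 95% interval -0.34 to -0.14), with a Benjamini-Hochberg adjusted p of 0.000516. The leucyl enzyme also acts as a leucine sensor for the growth kinase mTORC1 in mammalian cells. For Yars (chromosome 4, 129189760 to 129219607, plus strand) they were 3464 and 4153 normalized counts, the lowest mean among the called members of the authors' deposited table (log2 -0.26, 95% interval -0.41 to -0.12), with a Benjamini-Hochberg adjusted p of 0.0159. Yars shares 30 exon bases with C77080 on the opposite strand, which was called higher at log2 0.34 in the authors' deposited table. Whether strand was used in counting is not given in the sources used here, so reads of that stretch cannot be told apart.

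Gars and Kars, the glycyl and lysyl enzymes that serve both compartments from a shared gene, both fell. Gars (chromosome 6, 55038007 to 55079500, plus strand) was at 9970.5 normalized counts after Npm1 siRNA and 11683 in control by the authors' deposited table (log2 -0.23, 95% interval -0.35 to -0.11), with a Benjamini-Hochberg adjusted p of 0.00864. Kars (chromosome 8, 111993443 to 112011323, minus strand) was at 7232 and 8189 normalized counts by the authors' deposited table (log2 -0.18, 95% interval -0.29 to -0.07). Its Benjamini-Hochberg adjusted p of 0.0401 was close to the threshold, and the call was lost with no filter on low means (0.0703) and after subtraction of a trend with length and GC content of the transcript (0.182).

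Phenylalanyl-tRNA synthetase is built of alpha and beta subunits, encoded by Farsa and Farsb. Farsb (chromosome 1, 78417975 to 78488897, minus strand) fell from 4239 to 3679 normalized counts, derived from the authors' deposited table (log2 -0.20, 95% interval -0.33 to -0.08), with a Benjamini-Hochberg adjusted p of 0.0413. Farsb shares 248 exon bases on the opposite strand with Sgpp2, whose mean was 15.6. The call was also lost with no filter on low means (adjusted p = 0.0719) and after the length and GC trend was subtracted (0.210). Farsa was at log2 -0.06 in the authors' deposited table (95% interval -0.22 to 0.11) and was not called. The subunits differed by 0.15 on the log2 scale, Farsa minus Farsb, with an interval of -0.06 to 0.36 that includes 0.

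The 9 called genes were close to each other in size. The interval of Sars held the values of 7 of the other 8, and so did that of Kars, while each of the remaining intervals held all 8. No order among them is therefore drawn from these values. They were also the 9 lowest of the 20 genes with a cytosolic role. That position largely follows from the calls, since the standard errors of these 20 ran only from 0.049 to 0.087.

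The members' promoters were examined for letters of the C/EBP-ATF response element, the sequence through which Atf4 binds many amino acid response genes. The letters TGATGNAAN were searched on both strands of RefSeq promoter windows of 300 bases (build GRCm38.p6), from 250 bases before the start site given by RefSeq to 50 after. Windows were matched for 26 of the 36 members by symbol. Those not matched were Cars, Hars, Lars, Mars, Nars, Rars, Vars, Wars, Hars2 and Pars2. The stretches around each match are shown because these are the members whose windows hold the letters, with the matched letters other than the free last base in capitals.
Aars: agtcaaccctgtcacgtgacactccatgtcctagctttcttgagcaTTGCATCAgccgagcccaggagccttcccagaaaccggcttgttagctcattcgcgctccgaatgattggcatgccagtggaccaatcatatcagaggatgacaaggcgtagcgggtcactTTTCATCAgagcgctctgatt
Tars: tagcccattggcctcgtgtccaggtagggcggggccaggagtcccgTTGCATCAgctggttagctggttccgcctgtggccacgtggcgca
Gars: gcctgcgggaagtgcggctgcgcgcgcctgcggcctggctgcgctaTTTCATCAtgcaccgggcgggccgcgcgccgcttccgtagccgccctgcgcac
Yars: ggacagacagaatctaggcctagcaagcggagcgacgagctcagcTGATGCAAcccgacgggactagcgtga
Iars: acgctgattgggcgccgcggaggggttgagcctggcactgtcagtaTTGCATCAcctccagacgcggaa
The stretches lie at chr8:111033684-111033871, plus strand, for Aars, chr15:11399629-11399719, minus strand, for Tars, chr6:55037925-55038023, plus strand, for Gars, chr4:129189861-129189932, plus strand, for Yars, and chr13:49682091-49682159, plus strand, for Iars. Each is written from 5′ to 3′ on the strand of its gene, so a match on the opposite strand reads as its reverse complement, TTNCATCA. The match in Aars at position -113 from the start site and the match in Tars at -16 were on the opposite strand, as was that in Gars at -31. In Yars the match was on the strand of the gene from position 4, and in Iars on the opposite strand from position 7, both just past the start site. Aars held a further match from position 9.

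These letters were found in 4 of the 7 called members with a window, Aars, Gars, Tars and Yars, and in 1 of 5 cytosolic members that were not called, Iars. None of 14 mitochondrial members with a window held them. Over all 27025 genes of the promoter table the share was 4.50%, and over the 10226 tested genes with a window it was 2.70%. The stricter letters TGATGCAAN, which are contained in the first motif, were in 4 of 26 members with a window, Aars, Iars, Tars and Yars. Of the called members with a window, 3 of 7 held them, against 0.733% of tested genes. Other letters, CACGTG, were searched as well and were in 3 of the 7 called members with a window, Aars, Farsb and Tars. Only the search for TGATGNAAN was planned, and TGATGCAAN and CACGTG were added to it. CACGTG was also in 1 of 5 cytosolic members not called, Iars, and in 1 of 14 mitochondrial members, Ears2, against 11.9% of tested genes. The windows of the called genes Sars, Kars and Farsb did not hold TGATGNAAN, which says only that these letters are not in those 300 bases. A match describes the sequence and is not evidence of binding in these cells.

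The class I enzymes of the cytosol number 10, of which 2 fell, Lars and Yars. Eprs is counted among them for its glutamyl activity, although its prolyl activity belongs to class II. Iars, for isoleucyl-tRNA synthetase, was the next lowest at log2 -0.17 (95% interval -0.298 to -0.04), with a Benjamini-Hochberg adjusted p of 0.126, by the authors' deposited table. Rars, the arginyl enzyme, was at -0.16 (adjusted p = 0.0938) and Cars, the cysteinyl enzyme, at -0.16 (adjusted p = 0.170) in the authors' deposited table. Eprs, which carries both glutamyl and prolyl activity on a single chain, was at -0.11 with a narrow interval of -0.21 to -0.01 in the authors' deposited table (adjusted p = 0.226). These 4 had intervals below 0 but did not pass the adjustment over all genes. Wars, the tryptophanyl enzyme, was at -0.11, the methionyl enzyme Mars at -0.03, the glutaminyl enzyme Qars at -0.02 and the valyl enzyme Vars at 0.08 in the authors' deposited table, each with an interval that includes 0. Mars overlaps the stress gene Ddit3 on the opposite strand by 68 exon bases.

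The class II enzymes of the cytosol, leaving out Gars and Kars, which are also class II, number 8, of which 5 fell, Aars, Farsb, Nars, Sars and Tars. The other members were Farsa, the aspartyl enzyme Dars at log2 -0.05 and the histidyl enzyme Hars at 0.12 in the authors' deposited table. Hars had the highest value of any cytosolic member, with an interval of -0.03 to 0.27. It is transcribed away from Hars2, and the pair share 195 exon bases on opposite strands, so part of their reads cannot be assigned with certainty. Hars2 was at 0.10 in the authors' deposited table. The median log2 fold change was -0.14 for class I, Eprs included, and -0.21 for class II, and the difference between the classes was not tested.

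Enzymes of the multisynthetase complex were compared with the other cytosolic enzymes by their counts. Of the 8 synthetase genes, Dars, Eprs, Iars, Kars, Lars, Mars, Qars and Rars, all were negative, 2 fell and the median log2 fold change was -0.13. Of the 12 cytosolic genes outside the complex, 10 were negative, 7 fell and the median was -0.21. Over all tested genes, 2.07% were called lower and 49.6% were negative. The difference between genes inside and outside the complex was not tested. The scaffold genes were not called, with log2 fold changes of -0.12 for Aimp1, -0.01 for Aimp2 and -0.04 for Eef1e1 in the authors' deposited table.

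A background list of 12 cytosolic synthetases known to respond to Atf4 in mammalian cells held 7 of the 9 genes that fell. The list was drawn up with these results known and is not independent evidence of a direction. All 12 were negative and their median log2 fold change was -0.22. Of the 8 others, 6 were negative, 2 fell, Kars and Farsb, and the median was -0.05. Atf4 itself had a log2 fold change of -0.04 (95% interval -0.17 to 0.09, Benjamini-Hochberg adjusted p = 0.854), and the kinase gene Eif2ak4, which encodes Gcn2, one of 0.01 in the authors' deposited table. Asns, for asparagine synthetase, a well-known Atf4 target, was at -0.13 (adjusted p = 0.111), and the stress-induced genes Chac1, Trib3 and Ddit3 were at -0.40, -0.07 and -0.02 in the authors' deposited table, none called. Sesn2, which Atf4 and p53 both induce, was called higher at 0.35 in the authors' deposited table (adjusted p = 0.00534). Of the 8 genes of this shortage-sensing list, 1 was called higher and 0 lower, and 2 had an unadjusted p under 0.05 with a negative fold change. The relation of these genes to the synthetases was not tested.

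The mitochondrial enzymes gave no calls. At an unadjusted p under 0.05, which 7.79% of all genes passed as lower and 8.47% as higher, there was 1 of 16 genes, Rars2. Rars2, for the mitochondrial arginyl enzyme, had a log2 fold change of -0.23 (95% interval -0.396 to -0.07, Benjamini-Hochberg adjusted p = 0.0935) in the authors' deposited table, and was the member nearest to being called. The lowest values were those of Nars2, at -0.28, and Wars2, also at -0.28, in the authors' deposited table. Their means of 243 and 327 normalized counts gave wide intervals, from -0.67 to 0.11 and from -0.59 to 0.03. Fars2 was at -0.21 and Ears2, whose product charges mitochondrial glutamate and glutamine tRNAs with glutamate, at -0.11 in the authors' deposited table. The highest values were those of Vars2 at 0.24, Mars2 at 0.20, Cars2 at 0.14 and Aars2 at 0.14, all with intervals that include 0. The remaining members, Hars2, Iars2, Lars2, Pars2, Sars2, Tars2 and Yars2, lay between -0.06 and 0.10. Iars2 shares 2034 exon bases with Rab3gap2 and Cars2 shares 422 with Naxd, both on the opposite strand, so reads there cannot be told apart if strand was not used.

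Precision differed between compartments, which limits what the absence of mitochondrial calls can show. The cytosolic genes had a median mean count of 8161 and a median standard error of 0.06 on the log2 scale, against 599 and 0.13 for the mitochondrial genes. An estimate as large as the cytosolic median of -0.17 would have passed the threshold in 5 of 20 cytosolic and in 0 of 16 mitochondrial genes. An estimate as large as that of Sars would have passed in 3 of the 16. The 95% interval included the cytosolic median in 10 of the 16 mitochondrial genes, and it included 0 in 15. Of all tested genes, 3.26% were called lower at means from 3000 to 30000 and 2.56% at means from 250 to 3000, ranges that hold most of the cytosolic and all but 1 of the mitochondrial members.

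**Figure D2:**
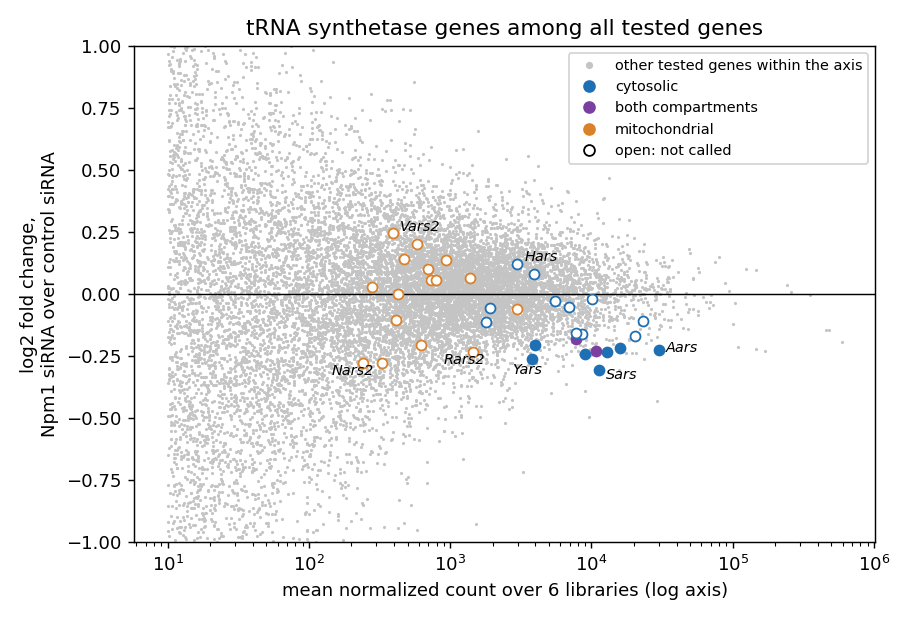
Log2 fold change (vertical axis) against the mean normalized count over 6 libraries (horizontal log axis) for the 36 synthetase genes and, in grey, the other tested genes within the axis, which leaves out 462 genes beyond a log2 fold change of 1. The filled, called genes sit at means from 3809 to 29842, and the mitochondrial genes lie to the left, where the grey cloud is wider.

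The cytosolic transcripts were also the more abundant per length. Levels per kilobase of the principal annotated transcript ran from 953 mean normalized counts for Vars to 5781 for Nars among cytosolic members. Among mitochondrial members they ran from 51.1 for Mars2, which has an annotated transcript of 11294 bases, to 776 for Rars2. In the 13 amino acids with a separate gene for each compartment, the cytosolic level per kilobase was higher in all 13, by 4.81-fold for tyrosine to 89.9-fold for asparagine. Summed over genes, the approximate level of the 20 cytosolic genes was 89.0% of control after Npm1 siRNA and that of the 16 mitochondrial genes 99.0%, as derived from the authors' deposited table. All 36 together made up 0.763% of the summed mean counts.

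The enzymes of both compartments were compared within each amino acid. The cytosolic minus mitochondrial difference in log2 fold change was negative in 9 of 13 amino acids, with a median of -0.23. Its 95% interval lay below 0 for serine (-0.36, interval -0.65 to -0.08), alanine (-0.36, interval -0.62 to -0.10), threonine (-0.298, interval -0.51 to -0.09) and leucine (-0.297, interval -0.55 to -0.04), and included 0 for the other 9. These intervals take the fold changes of both genes as independent and are not adjusted for 13 comparisons. For asparagine, arginine, tryptophan and histidine the cytosolic value was the higher, by 0.06, 0.07, 0.16 and 0.02. Both arginyl genes were negative with intervals below 0, and neither was called.

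**Figure D3:**
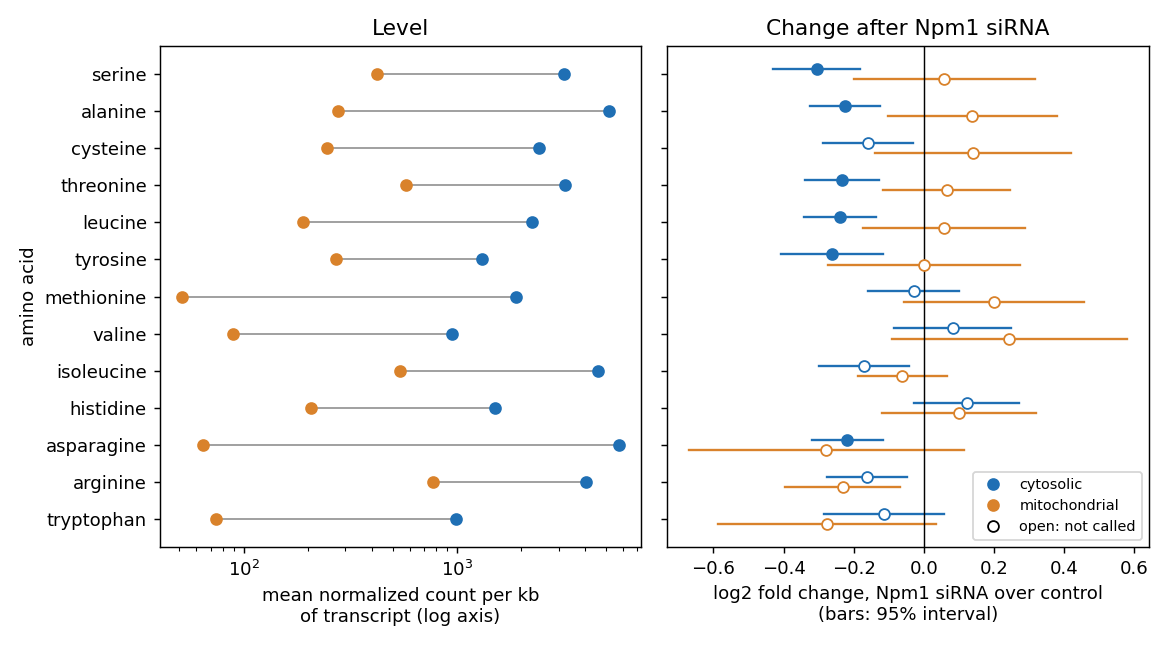
Level per kilobase of transcript (left, log axis) and log2 fold change with its 95% interval (right) for the 13 amino acids with a separate cytosolic and mitochondrial gene, ordered by the difference between their fold changes. The cytosolic level is the higher in all 13, and the called genes (filled, right panel) are Sars, Aars, Tars, Lars, Yars and Nars.

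The other genes, of the tRNA charging route and of amino acid shortage sensing, gave 1 call in 34 tested genes. Over all tested genes, 2.07% were called lower and 2.23% higher. The call was the rise of Sesn2 described above, a gene of the shortage-sensing list. Of the synthetase-like genes, Tarsl2 was at log2 -0.15, Prorsd1 at -0.00473 and Aarsd1 at -0.09 in the authors' deposited table, and none of these 3 was called. The route to selenocysteine and the route to mitochondrial glutaminyl- and formylmethionyl-tRNA had 4 tested genes each and no calls. The former was led in abundance by Eefsec (log2 -0.16) and Secisbp2 (0.04), and the latter by Gatc (0.10) and Qrsl1 (0.09), by the authors' deposited table. The formyl-removing enzyme gene Pdf, with a mean of 9.01, was below the minimum for testing.

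Genes for tRNA end maturation and export gave 0 calls among 6, and 1 had an unadjusted p under 0.05, Elac2, the mitochondrial and nuclear enzyme that trims tRNA 3′ ends, at log2 0.18 in the authors' deposited table. Ssb, which binds new RNA polymerase III transcripts, was at -0.10 and the tRNA exporter Xpot at -0.05 in the authors' deposited table. Of the 4 genes that clear D-aminoacyl- or peptidyl-tRNA, 0 were called, with Dtd1 at -0.31 (Benjamini-Hochberg adjusted p = 0.207) and Dtd2 at 0.01 in the authors' deposited table. The elongation factors that carry charged tRNA to the ribosome, Eef1a1 in the cytosol and Tufm in mitochondria, were at 0.00846 and 0.08 in the authors' deposited table and were not called.

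**Figure D4:**
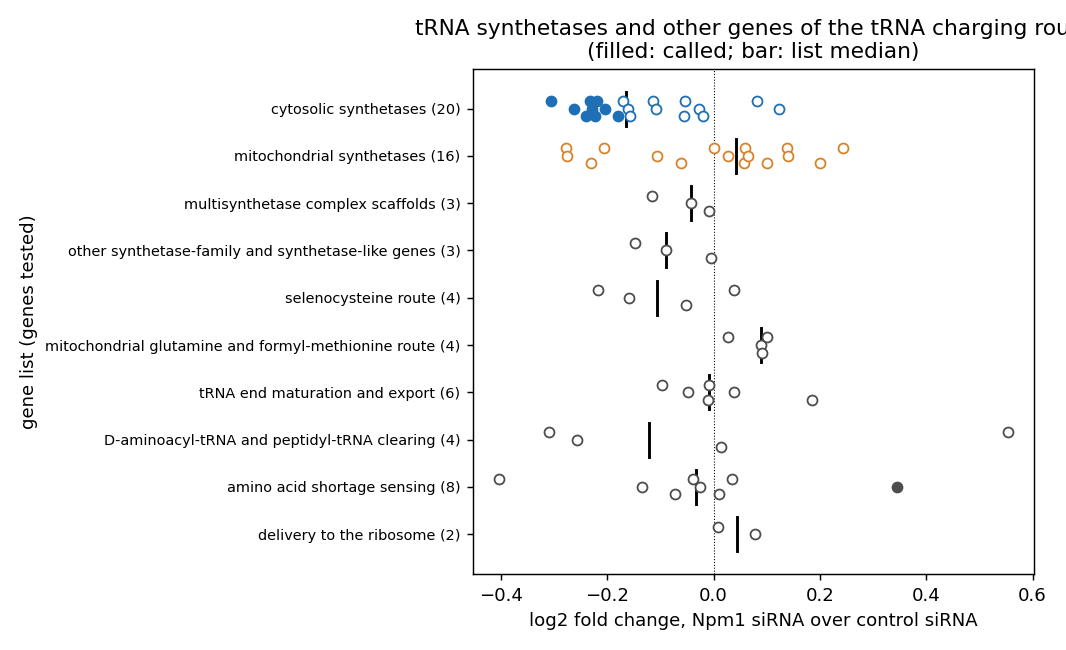
Log2 fold change of every tested gene (points), with the list median as a vertical bar. The lists are the cytosolic synthetases with Gars and Kars, the mitochondrial synthetases and 8 further lists of the charging route and shortage sensing. Filled points are called: 9 cytosolic synthetases at the left and Sesn2, at 0.35, in the shortage-sensing list.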

How the data were processed

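Deposited data for 3 control siRNA and 3 Npm1 siRNA samples were used, with groups taken from the sample titles. Per the submitters' processing notes, the authors used FastQC, Trimmomatic 0.36, STAR and DESeq2 on GRCm38 (mm10). The read counter, strand setting, annotation and model settings were not given in the sources used here. The deposited table of 52535 rows holds the authors' comparison. Its mean column is a signal value, read counts divided by a scaling factor per library and averaged by the authors, per the file headers. Its log2 column is the authors' log2 fold change and its p-value column their unadjusted p, as deposited.

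The planned count model could not be fitted, since the table holds no values per library. In its place, Benjamini-Hochberg adjustment was applied to the deposited p-values of all 14284 genes whose mean was at least 10. Standard errors were implied by each fold change and the normal quantile of its p, and are exact only for Wald tests on unshrunken fold changes. Group levels assume groups of equal size. Depth per library is unknown, and no interval covers more than the spread behind the authors' p. GENCODE vM21 (GRCm38) gave coordinates and principal transcript lengths, with 13906 tested genes (97.4%) matched. Python 3.11.15, numpy 2.4.6, scipy 1.17.1 and pandas 2.3.3 were used. The code for adjustment and standard errors was run on simulated Wald statistics. Since these were drawn under the same assumption, that run checks the code only, not whether the assumption holds for the authors' p-values. Named were all members, called genes, and the genes of greatest abundance of each other list. Eef1e1, Aarsd1, Eif2ak4, Chac1, Trib3, Ddit3, Elac2 and Pdf, and genes that overlap members, were added after their values were seen. The members and lists were chosen with earlier results of these data known. Alternatives were the filter, recentring, a trend with length and GC content, protein-coding genes only, a test against a fold of 1.2 and Holm's method. One gene of the other lists is not reported here.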

Additional observations from a re-analysis of the deposited data

How the results depend on the processing

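There were again 9 calls with a minimum mean of 50, with recentring on the median and with protein-coding genes only. They numbered 7 with no filter and after the length and GC trend was subtracted, each time without Kars and Farsb. Against a fold of 1.2 there were 0. That fold is 0.263 on the log2 scale, and of the called genes only Sars had an estimate beyond it, at -0.31 with an interval of -0.43 to -0.18. With Holm's method, an alternative chosen after seeing the data, 1 remained, Sars. The medians of the cytosolic genes lay between -0.17 and -0.14 and those of the mitochondrial genes between 0.03 and 0.04. Signs turned for genes not called: Sars2 (-0.0223) and Vars (-0.0527) after the trend was subtracted, and Yars2 (-0.000836) on recentring, where the cause is the shift of 0.00192 itself. The trend values subtracted were 0.0810 for Sars2 and 0.135 for Vars, each larger than the gene's own log2 fold change of 0.0587 and 0.0825. No paired analysis was possible because the table holds no values per library, and for the same reason leaving out replicates, another normalization and a check for outlying samples were not run. An estimate of the size of the cytosolic median would not have passed the threshold in any of the 16 mitochondrial genes, given their standard errors. An estimate of the size of Sars would have passed in 3. The power to detect a true change of either size was not computed.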
